A study of Mus musculus with 16 samples.

Results

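The oncostatin M and interleukin-6 axis of mouse epidermal cells was followed through 10 genes, taken by symbol from the 50600 gene identifiers of the deposited count table. They encode the ligands oncostatin M (Osm), interleukin-6 (Il6) and leukemia inhibitory factor (Lif), the receptor chains Osmr, Lifr, Il6ra, Il31ra and Il6st, the transcription factor Stat3, and the feedback inhibitor Socs3. All 10 were found in the table and passed the minimum of 10 counts in total. All are protein-coding genes, and their positions are from GENCODE M21 on GRCm38. The ligand genes are Osm (ENSMUSG00000058755) at chr11:4236420-4241026 (plus), Il6 (ENSMUSG00000025746) at chr5:30013114-30019981 (plus) and Lif (ENSMUSG00000034394) at chr11:4257557-4272514 (plus), with the strand in parentheses. The receptor genes are Osmr (ENSMUSG00000022146) at chr15:6813577-6874969 (minus), Lifr (ENSMUSG00000054263) at chr15:7090614-7197489 (plus), Il6st (ENSMUSG00000021756) at chr13:112464070-112510086 (plus), Il6ra (ENSMUSG00000027947) at chr3:89864059-89913196 (minus) and Il31ra (ENSMUSG00000050377) at chr13:112519898-112594360 (minus). The signalling genes are Stat3 (ENSMUSG00000004040) at chr11:100885098-100939540 (minus) and Socs3 (ENSMUSG00000053113) at chr11:117966079-117970047 (minus).

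Cytokines of the interleukin-6 family signal through pairs of receptor chains that share the Il6st product, gp130. In the mouse, oncostatin M engages OSMR with gp130, LIF engages LIFR with gp130, and interleukin-6 engages its own alpha chain and then gp130, while interleukin-31 uses IL31RA with OSMR. The occupied receptors activate JAK kinases, which phosphorylate STAT3, and SOCS3, itself induced by STAT3, binds gp130 and turns the signal down. In skin, oncostatin M comes mainly from infiltrating leukocytes and acts on keratinocytes, which carry OSMR.

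Epidermal cells of the footpad were taken from 16 female C57/B6J mice, and a separate library was sequenced from each mouse, with 4 in each of 4 groups. All mice were put at 5 wk of age, for 3 wk, on a purified diet low in ligands of the aryl hydrocarbon receptor (AhR), given as such (AhR-poor diet, labelled SYNTH) or with 200 ppm of indole-3-carbinol, a dietary precursor of AhR ligands (I3C diet). The footpad was then injected with 50 μl of PBS (vehicle), or with 50 μg of the protease allergen papain in PBS, and cells were extracted 6 hr later. Because cages held mice of a single diet, diet and cage cannot be told apart, and p-values measure the spread between these mice.

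Library totals ranged from 22500821 to 51844375 counts, and 3 counts, taken as the detection floor, corresponded to between 0.0569 and 0.130 CPM (counts scaled to the library total after its adjustment by a TMM factor). This limit covers counting error only. The label of epidermal cells was checked against marker genes. The summed level of 5 basal keratinocyte markers lay between 20114 and 35452 CPM in all libraries, and that of 5 suprabasal markers between 18161 and 41474 CPM. Markers of other cells were present as well and differed between groups. The 7 dermal fibroblast markers summed to 9.55 to 13.5 CPM in I3C vehicle, 2.28 to 11.6 CPM in I3C papain, 95.8 to 171 CPM in AhR-poor vehicle and 253 to 623 CPM in AhR-poor papain libraries. Within the AhR-poor papain group, library T105 stood highest and library T112 lowest for fibroblast, neutrophil and monocyte markers. For the 10 genes, a result that rests on 1 library is given with and without it. Fits of other genes use all libraries unless a library is named.

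The 3 ligand genes shared one feature, that their highest group mean was AhR-poor papain. Osm had the largest differences of the 10 genes. In the AhR-poor papain libraries T104, T105, T107 and T112, Osm stood at 15.8, 30.9, 12.8 and 5.66 CPM. In the AhR-poor vehicle libraries T100, T101, T102 and T103 it stood at 0.354, 0.344, 0.297 and 0.268 CPM. The lowest AhR-poor papain library was thus well above every AhR-poor vehicle library, and the spread within the papain group was wide.

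On the I3C diet Osm was at the edge of detection. The vehicle libraries T108, T109, T110 and T111 held 4, 1, 1 and 4 Osm counts, and the papain libraries T106, T113, T114 and T115 held 27, 4, 6 and 3. In CPM these were 0.115, 0.0255, 0.0272 and 0.120 for vehicle and 0.658, 0.128, 0.171 and 0.0746 for papain. The ranges overlapped, and T106 was the only I3C library clearly above the rest.

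The group means of Osm were ordered AhR-poor papain at 16.3 ± 10.6 CPM (SD, n = 4), AhR-poor vehicle at 0.316 ± 0.0404, I3C papain at 0.258 ± 0.269 and I3C vehicle at 0.0719 ± 0.0526. The ranges of AhR-poor vehicle and I3C papain overlapped, as did those of I3C papain and I3C vehicle. A gene was called when its adjusted p was below 0.01 and its log2 fold change lay outside the limits of -1 and 1. Papain raised Osm on the AhR-poor diet with a log2 fold change of 5.68 (standard error 0.57, adjusted p = 3.36e-06, edgeR's quasi-likelihood test with Benjamini-Hochberg adjustment). With I3C the value was 1.89 (standard error 0.95, adjusted p = 0.145), and 0.78 without T106 (adjusted p = 0.612), so that no change was detectable at this depth. After papain, Osm was higher with the AhR-poor diet than with I3C, at a log2 fold change of 5.92 (standard error 0.59, adjusted p = 6.99e-06), or 7.03 without T106. After vehicle the groups did not overlap, with all 4 AhR-poor libraries above the 4 I3C libraries, but the log2 fold change of 2.13 (standard error 0.93) had an adjusted p of 0.347.

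**Figure D1:**
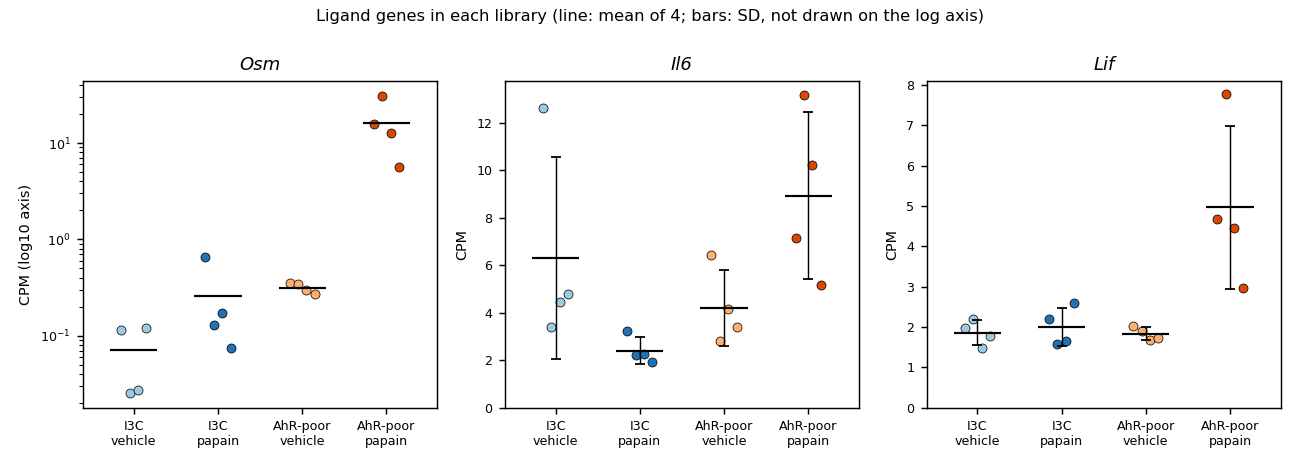
CPM of the ligand genes Osm, Il6 and Lif in each of the 16 libraries, by group, with 1 point a library and a line at the mean of 4. The Osm axis is logarithmic and carries no error bars, and bars are the SD for Il6 and Lif. All 4 AhR-poor papain libraries sit between 5.66 and 30.9 CPM for Osm, above every other library, whereas for Il6 the AhR-poor papain and I3C vehicle groups overlap.

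The summed neutrophil and monocyte markers, like Osm, were highest in the AhR-poor papain group. Among the other groups, the neutrophil sums were higher in I3C papain than in AhR-poor vehicle, where mean Osm was 0.258 and 0.316 CPM. The I3C papain sum was mostly Cxcr2 and Mmp9. Monocyte sums were higher in every AhR-poor vehicle library than in every I3C library, and those of the I3C groups overlapped. The 7 neutrophil markers summed to 1.29 to 3.84 CPM in I3C vehicle, 32.0 to 38.6 CPM in I3C papain, 7.73 to 9.48 CPM in AhR-poor vehicle and 67.9 to 396 CPM in AhR-poor papain libraries. Papain raised 7 of the 7 on the AhR-poor diet and 2 of the 7, Cxcr2 and Mmp9, on the I3C diet by edgeR, against 6 and 5 of the 7 by DESeq2. Ly6g, the defining neutrophil surface antigen, had 0 counts in all libraries of the first 3 groups and was detected in the AhR-poor papain group. The 7 monocyte and macrophage markers summed to 19.4 to 28.5 CPM, 11.3 to 38.7 CPM, 48.5 to 58.3 CPM and 112.96 to 539 CPM in the same order of groups, and papain raised 5 of the 7 on the AhR-poor diet and 0 of the 7 on the I3C diet, where 1 had an unadjusted p below 0.05 and DESeq2 called 0. None of these 7 was at 0 throughout a group, and Ly6c2 was at or below the floor in every I3C vehicle library.

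Within the AhR-poor papain group, T105 held the most Osm, 30.9 CPM, together with the largest sums of 396 CPM for neutrophil and 539 CPM for monocyte markers, and T112 held the least Osm, 5.66 CPM, with sums of 67.9 and 112.96 CPM. In the I3C papain group, T106 had the most Osm, 0.658 CPM, and the largest monocyte sum, 38.7 CPM, and its neutrophil sum of 36.8 CPM lay within the range of the other 3. That sum was mostly Cxcr2 and Mmp9 in this group, with means of 24.2 and 10.1 CPM. For Csf3r, Trem1 and Clec4d, T106 was the highest I3C papain library, at 2.29, 1.75 and 1.97 CPM, against group medians of 0.319, 0.235 and 0.304 CPM. The part of these cells in the Osm values was not tested, and in RNA from mixed cells fewer cells of a type and less RNA per cell cannot be told apart.

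**Figure D2:**
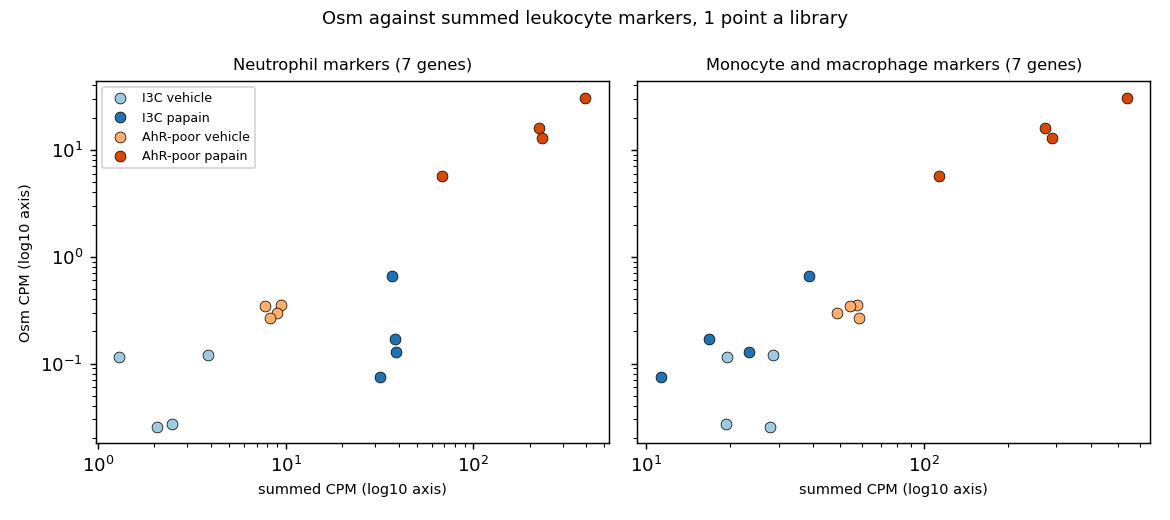
Osm CPM against the summed CPM of 7 neutrophil markers (left) and 7 monocyte and macrophage markers (right), both axes logarithmic, with 1 point a library coloured by group. The AhR-poor papain libraries lie at the upper right of both panels, with T105 at 30.9 CPM of Osm the farthest, and the I3C papain libraries have neutrophil sums of 32.0 to 38.6 CPM with at most 0.658 CPM of Osm. In the I3C papain group, Cxcr2 and Mmp9 make up most of the neutrophil sum.

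Il6 encodes a ligand made by keratinocytes, fibroblasts and leukocytes alike. It measured 7.16, 13.2, 10.2 and 5.17 CPM in the AhR-poor papain libraries T104, T105, T107 and T112, and 6.46, 2.81, 4.15 and 3.41 CPM in AhR-poor vehicle libraries T100 to T103. In I3C mice it measured 12.6, 3.39, 4.46 and 4.80 CPM after vehicle (T108 to T111) and 3.24, 2.21, 2.25 and 1.94 CPM after papain (T106, T113, T114 and T115). T108 was far above the other vehicle libraries of its diet, the AhR-poor groups overlapped, and all I3C papain libraries lay below all I3C vehicle libraries.

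The order of the Il6 means was AhR-poor papain at 8.94 ± 3.52 CPM (SD, n = 4), I3C vehicle at 6.32 ± 4.25, AhR-poor vehicle at 4.21 ± 1.60 and I3C papain at 2.41 ± 0.569. The ranges of all neighbours in this order overlapped. The papain response had opposite signs on the diets, with log2 fold changes of 1.09 (standard error 0.40, adjusted p = 0.0469) on the AhR-poor and -1.38 (standard error 0.41, adjusted p = 0.0157) on the I3C diet, and neither was called. Both calls depended on the setting. DESeq2 called the first at an adjusted p of 0.00799 and the second at 8.93e-04, and leaving out T108 or T109, respectively, also gave a call. Without T108 the I3C value weakened to -0.80, and over the other settings its adjusted p was at most 0.0619. After papain, Il6 was higher on the AhR-poor diet, by 1.89 on the log2 scale (standard error 0.41, adjusted p = 0.00450), a call that was lost without T105, T107, T113, T114 or T115, with an adjusted p of up to 0.0196 and a log2 fold change that stayed between 1.61 and 1.86. With vehicle the diet difference was -0.59 (standard error 0.40, adjusted p = 0.627), and -0.0034 without T108.

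Lif, which lies 16530 bases from Osm on chromosome 11 and encodes a ligand of LIFR, stayed low outside one group. It measured 4.68, 7.78, 4.46 and 2.96 CPM in AhR-poor papain libraries (T104, T105, T107 and T112). Every other library lay between 1.47 and 2.59 CPM. The AhR-poor papain group therefore overlapped with no other.

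The Lif means were 4.97 ± 2.02 CPM (SD, n = 4) in AhR-poor papain, 2.001 ± 0.477 in I3C papain, 1.85 ± 0.309 in I3C vehicle and 1.83 ± 0.158 in AhR-poor vehicle, and the ranges of the last 3 overlapped. Papain raised Lif on the AhR-poor diet (log2 fold change 1.45, standard error 0.25, adjusted p = 1.52e-04 by edgeR). With I3C it was 0.12 (standard error 0.25, adjusted p = 0.772), and it turned to -0.03 without T115. After papain Lif was higher with the AhR-poor diet than with I3C by 1.31 on the log2 scale (standard error 0.25, adjusted p = 7.69e-04), which dropped inside the fold limit without T105 (0.99). Within the AhR-poor papain group T105 was highest and T112 lowest for Il6 and Lif as well as for the leukocyte and fibroblast markers, whose part was not tested. On the I3C diet the neutrophil sum was higher, and Il6 lower, in every papain library than in every vehicle library, and T108, with 12.6 CPM of Il6, had the lowest neutrophil sum of all, 1.29 CPM. The rise of this sum on the I3C diet was mostly that of Cxcr2, from 0.705 to 24.2 CPM, and Mmp9, from 1.64 to 10.1 CPM, with Ly6g at 0 counts.

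The promoters of Il6 and Lif are shown because these genes, with Lifr, had the largest called changes among the genes with a promoter sequence. In these promoters, 5 short motifs were searched on both strands. Windows are the 250 bases before the start site, taken from RefSeq for GRCm38.p6, and were matched for 9 of the 10 genes, all but Osm. The window of Il6 is chr5:30012864-30013113 and that of Lif chr11:4257318-4257567, both on the plus strand, and capitals mark the motifs found.
Il6: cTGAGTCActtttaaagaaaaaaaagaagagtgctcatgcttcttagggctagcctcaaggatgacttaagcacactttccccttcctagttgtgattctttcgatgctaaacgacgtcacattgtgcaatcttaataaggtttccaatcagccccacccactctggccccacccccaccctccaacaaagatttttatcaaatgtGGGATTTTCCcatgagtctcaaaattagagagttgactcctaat
Lif: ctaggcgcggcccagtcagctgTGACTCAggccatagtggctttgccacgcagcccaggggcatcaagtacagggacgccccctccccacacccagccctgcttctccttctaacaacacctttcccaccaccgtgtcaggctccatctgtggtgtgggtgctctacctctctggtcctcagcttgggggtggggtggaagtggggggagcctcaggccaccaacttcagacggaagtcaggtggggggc
The capitals in Il6 are an AP-1 motif (searched as TGANTCA) at -249 to -243 relative to the start and an NF-kB motif (GGG, any pair of bases, then TTTCC) at -44 to -35. In Lif they are an AP-1 motif at -228 to -222. Of all 32851 such windows, 6.75% held the AP-1 and 1.41% the NF-kB motif. These are matches of letters, with no measure of binding.

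Among the receptor chains, papain moved the chains of oncostatin M and LIF in opposite directions on both diets. Osmr, the oncostatin M chain that interleukin-31 also uses, measured 92.1, 77.9, 79.5 and 74.5 CPM in AhR-poor papain libraries T104, T105, T107 and T112, and 82.9, 105.2, 106.2 and 101.98 CPM in I3C papain libraries T106, T113, T114 and T115. Vehicle libraries had 44.1, 41.9, 34.1 and 41.2 CPM on the AhR-poor diet (T100 to T103) and 56.4, 41.2, 35.9 and 38.0 CPM on the I3C diet (T108 to T111). All 8 papain libraries were above all 8 vehicle libraries.

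The order of means for Osmr was I3C papain at 99.1 ± 10.9 CPM (SD, n = 4), AhR-poor papain at 81.0 ± 7.67, I3C vehicle at 42.9 ± 9.29 and AhR-poor vehicle at 40.3 ± 4.30, and the ranges of the diets overlapped at each treatment. Papain raised Osmr 2.01-fold on the AhR-poor diet (log2 fold change 1.01, standard error 0.13, adjusted p = 8.52e-06) and 2.31-fold on the I3C diet (1.21, standard error 0.13, adjusted p = 6.61e-07). The first value stood at the fold limit of 1 on the log2 scale, and was 0.94 without T104 and 0.95 without T102. Between diets Osmr was not called, with -0.09 after vehicle (adjusted p = 0.871) and -0.29 after papain (standard error 0.12, adjusted p = 0.112), where the ranges overlapped through T106.

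Lifr, the chain that LIF engages together with gp130, lies 215644 bases from Osmr on chromosome 15 and went the other way. It measured 18.8, 19.4, 17.8 and 16.2 CPM in AhR-poor papain libraries (T104, T105, T107 and T112) and 18.9, 12.9, 11.7 and 13.6 CPM in I3C papain libraries (T106, T113, T114 and T115). Vehicle libraries ranged from 35.3 to 48.8 CPM on the AhR-poor diet and from 35.4 to 52.8 CPM on the I3C diet. No papain library reached the lowest vehicle library.

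The Lifr means were 43.5 ± 7.62 CPM (SD, n = 4) in I3C vehicle, 41.0 ± 6.09 in AhR-poor vehicle, 18.1 ± 1.42 in AhR-poor papain and 14.3 ± 3.19 in I3C papain, and the ranges of the diets overlapped at each treatment. Papain lowered Lifr 2.27-fold on the AhR-poor diet (log2 fold change -1.18, standard error 0.15, adjusted p = 8.89e-06) and 3.04-fold on the I3C diet (-1.60, standard error 0.15, adjusted p = 2.05e-07). The diet difference after papain was 0.34 (standard error 0.15, adjusted p = 0.125). Lifr had the largest called change among the receptor chains and is the third gene whose window is shown. The window is chr15:7129322-7129571 on the plus strand, before the first of 2 starts listed in RefSeq. It held none of the 5 motifs and has no capitals. This window lies inside the GENCODE span of Lifr, chr15:7090614-7197489, and the bases before the GENCODE start were not searched.
Lifr: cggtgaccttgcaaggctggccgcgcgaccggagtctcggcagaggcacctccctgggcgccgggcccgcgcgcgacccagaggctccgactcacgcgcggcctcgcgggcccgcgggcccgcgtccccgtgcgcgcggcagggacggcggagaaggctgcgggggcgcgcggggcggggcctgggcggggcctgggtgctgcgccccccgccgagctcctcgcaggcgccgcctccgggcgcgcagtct
No match says only that these letters are not in this window.

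**Figure D3:**
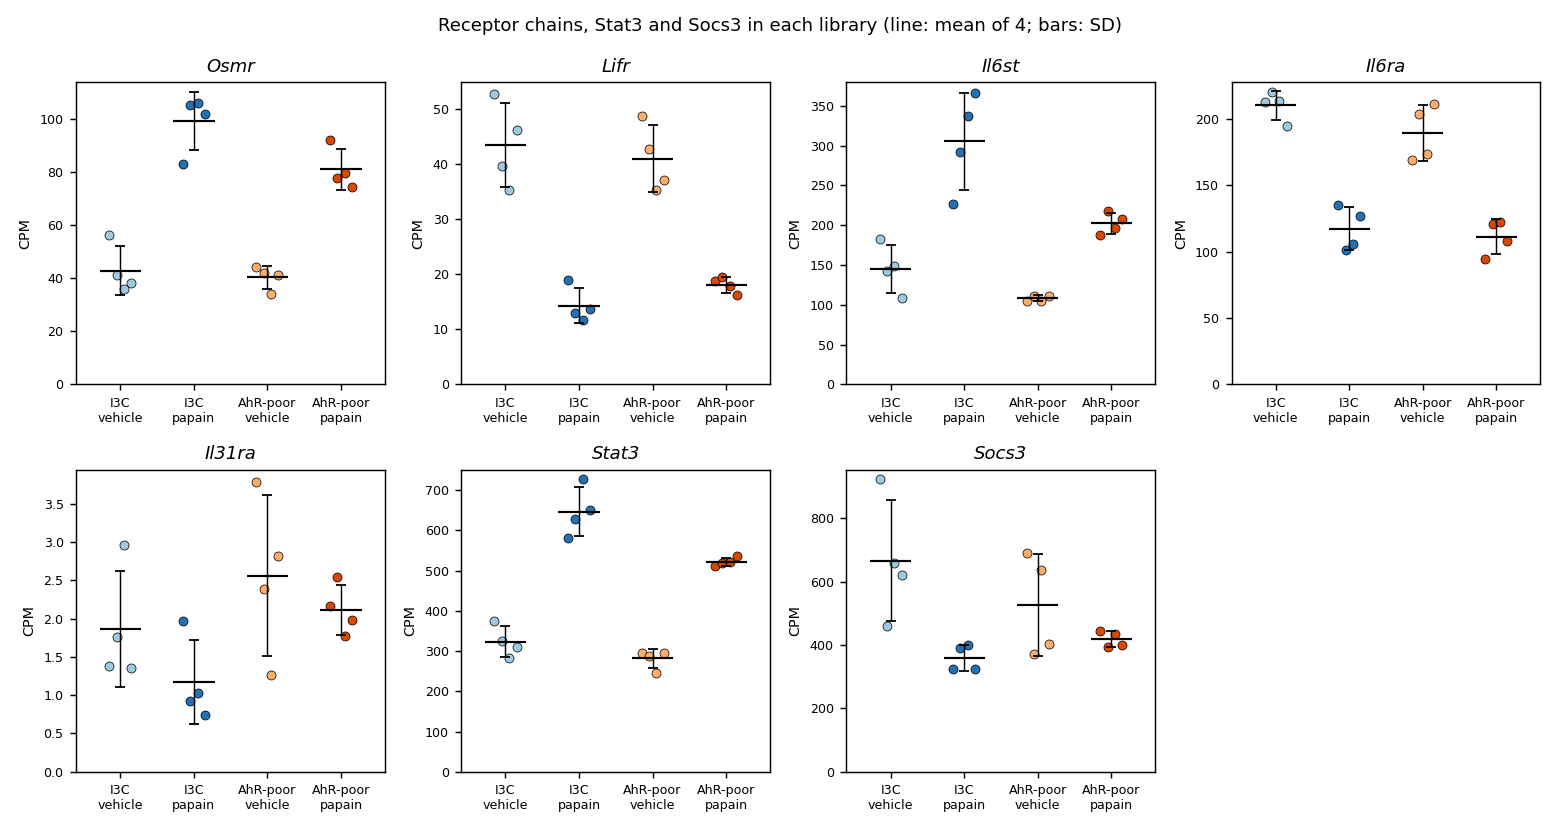
CPM of Osmr, Lifr, Il6st, Il6ra, Il31ra, Stat3 and Socs3 in each of the 16 libraries, by group, with 1 point a library, a line at the mean of 4 and bars for the SD. Osmr, Il6st and Stat3 sit higher, and Lifr and Il6ra lower, in every papain library than in every vehicle library of the same diet.

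Il6st encodes gp130, the chain that every receptor here except the IL31RA pair contains. It measured 187, 217, 197 and 208 CPM in AhR-poor papain libraries (T104, T105, T107 and T112) against 104.6, 111.6, 104.8 and 111.03 CPM in AhR-poor vehicle libraries (T100 to T103). In I3C mice it measured 227, 292, 338 and 366 CPM after papain (T106, T113, T114 and T115) and 182, 143, 149 and 108.6 CPM after vehicle (T108 to T111). Neither diet had an overlap between treatments, and after papain all I3C libraries were above all AhR-poor libraries.

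The order of the Il6st means was I3C papain at 306 ± 60.8 CPM (SD, n = 4), AhR-poor papain at 202 ± 13.2, I3C vehicle at 146 ± 30.2 and AhR-poor vehicle at 108.03 ± 3.82, where the ranges of the last pair overlapped. Papain raised Il6st on the I3C diet (log2 fold change 1.07, standard error 0.14, adjusted p = 9.59e-06), a call that fell inside the fold limit without T115 (0.97) or T111 (0.96). The AhR-poor value of 0.91 (standard error 0.14, adjusted p = 7.30e-05) was inside the limit, and so was the diet difference after papain, -0.59 (standard error 0.14, adjusted p = 0.00527). After vehicle the diet difference was -0.43 (standard error 0.14, adjusted p = 0.131).

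Il6ra, the alpha chain that binds interleukin-6, was lower after papain by a smaller factor. The papain libraries measured 94.0, 121, 122 and 107.96 CPM on the AhR-poor (T104, T105, T107 and T112) and 135, 101.02, 105.98 and 126 CPM on the I3C diet (T106, T113, T114 and T115). Vehicle libraries measured 169, 204, 173 and 211 CPM on the AhR-poor (T100 to T103) and 213, 220, 213 and 194 CPM on the I3C diet (T108 to T111). Treatments did not overlap on either diet, whereas the diets overlapped at each treatment.

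Il6ra means were 210 ± 11.0 CPM (SD, n = 4) in I3C vehicle, 189 ± 21.2 in AhR-poor vehicle, 117 ± 16.2 in I3C papain and 111.3 ± 13.2 in AhR-poor papain. Its log2 fold changes after papain, -0.77 (standard error 0.10, adjusted p = 1.62e-05) on the AhR-poor and -0.84 (standard error 0.10, adjusted p = 3.56e-06) on the I3C diet, passed the adjusted p and stayed inside the fold limit. Il6ra shares 242 exonic bases with Gm42809 on the opposite strand, and reads there cannot be told apart where counting ignored strand.

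Il31ra, the interleukin-31 chain that pairs with OSMR, was at the low end of the receptor chains. Its libraries spread from 0.746 to 1.97 CPM in I3C papain, 1.35 to 2.97 CPM in I3C vehicle, 1.77 to 2.54 CPM in AhR-poor papain and 1.26 to 3.79 CPM in AhR-poor vehicle, so that all 4 groups overlapped. The means were 1.17 ± 0.548, 1.86 ± 0.758, 2.12 ± 0.325 and 2.56 ± 1.05 CPM (SD, n = 4) in the same order. The lowest adjusted p of Il31ra was 0.0881, for the diet difference after papain (log2 fold change 0.86, standard error 0.34, edgeR). Il31ra lies 9811 bases from Il6st on chromosome 13 and shares 45 exonic bases with Gm3226 on the same strand.

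Divided by the exonic length of each gene, the levels of the 5 receptor chains had the same order in all 8 vehicle libraries, Il6ra above Il6st, Lifr, Osmr and Il31ra. In all 8 papain libraries the order was Il6st above Il6ra, Osmr, Lifr and Il31ra. On this scale, CPM per kb, the I3C vehicle group had 24.3 ± 1.28 of Il6ra, 13.1 ± 2.72 of Il6st, 4.04 ± 0.707 of Lifr, 3.54 ± 0.767 of Osmr and 0.328 ± 0.134 of Il31ra (SD, n = 4). The I3C papain group had 13.5 ± 1.87, 27.5 ± 5.48, 1.33 ± 0.296, 8.18 ± 0.901 and 0.206 ± 0.0967 for the same chains. Lifr and Osmr were the closest neighbours after vehicle, with Osmr at 0.731 to 0.989 times Lifr per kb within the 8 libraries, and were far apart after papain.

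The ratio of Osmr to Lifr counts within a library does not depend on the scaling between libraries. It ranged from 0.822 to 1.07 in I3C vehicle, 0.904 to 1.11 in AhR-poor vehicle, 4.01 to 4.89 in AhR-poor papain and 4.37 to 9.04 in I3C papain libraries. Neither diet had an overlap between treatments. In an exact two-sided permutation test of the log2 ratio, papain differed from vehicle by 2.18 on the AhR-poor diet and by 2.84 on the I3C diet, both with p = 0.0286 and an adjusted p of 0.0571 over 4 comparisons.

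With 4 libraries against 4 the smallest p of that exact test is 0.0286. Both papain comparisons reached it, and their adjusted p did not pass the threshold of 0.05 set for this test. The difference between diets was 0.01 after vehicle (p = 0.943, exact permutation test) and -0.65 after papain (p = 0.114, adjusted p = 0.152), where T106 with 4.37 lay among the AhR-poor libraries and the other 3 I3C libraries, from 7.49 to 9.04, lay above them. Per kb, Il6st stood at 0.409 to 0.667 times Il6ra in the vehicle libraries and at 1.25 to 2.48 times in the papain libraries.

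**Figure D4:**
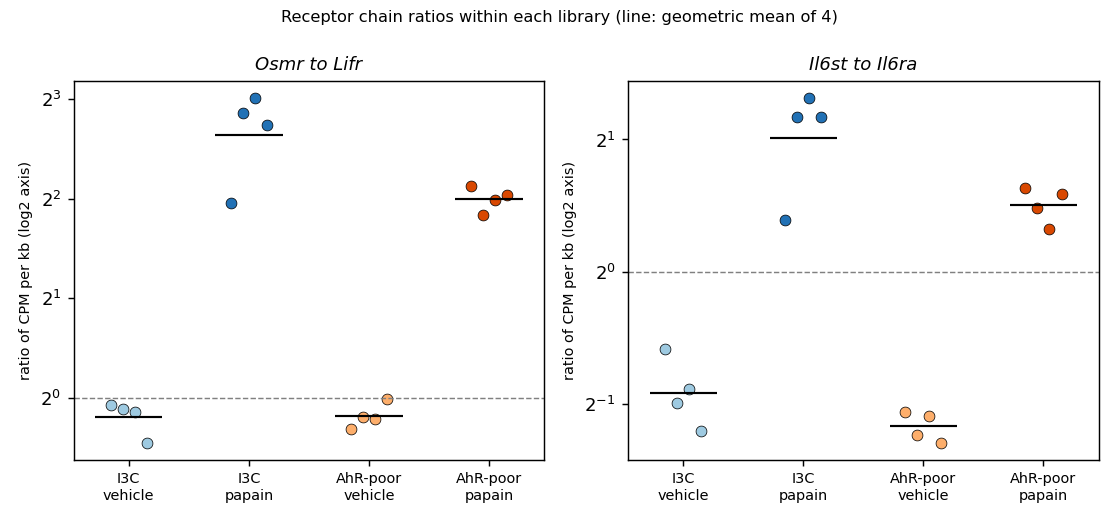
Ratio of Osmr to Lifr (left) and of Il6st to Il6ra (right) in CPM per kb, on a log2 axis, with 1 point a library and a line at the geometric mean of 4. The dashed line marks equal levels, which vehicle libraries lie below and papain libraries above for both ratios, and T106 is the lowest I3C papain library in both panels.

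Stat3, which carries the signal of gp130 to the nucleus, measured 511, 518, 522 and 535 CPM in AhR-poor papain libraries (T104, T105, T107 and T112) and 296, 289, 247 and 296 CPM in AhR-poor vehicle libraries (T100 to T103). On the I3C diet it measured 581, 628, 726 and 650 CPM after papain (T106, T113, T114 and T115) and 375, 325, 283 and 309 CPM after vehicle (T108 to T111). The papain libraries were above the vehicle libraries on both diets with no overlap, and the 4 AhR-poor papain libraries were below the 4 I3C papain libraries.

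The Stat3 means were 646 ± 60.9 CPM (SD, n = 4) in I3C papain, 521 ± 10.2 in AhR-poor papain, 323 ± 38.6 in I3C vehicle and 282 ± 23.8 in AhR-poor vehicle, where the ranges of the last pair overlapped. The papain response was 0.89 on the log2 scale (standard error 0.09, adjusted p = 6.74e-07) on the AhR-poor and 0.9997 (standard error 0.09, adjusted p = 8.30e-08) on the I3C diet. The latter lay just inside the fold limit and was past it in 11 of 23 other settings, up to 1.08 without T108. After papain the diet difference was -0.31 (standard error 0.09, adjusted p = 0.0181). A level of Stat3 mRNA does not measure the phosphorylated protein. Stat3 shares 72 exonic bases with Stat5a on the opposite strand.

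Socs3, the feedback inhibitor that binds gp130, measured 923, 460, 659 and 623 CPM in I3C vehicle libraries (T108 to T111) and 690, 373, 636 and 403 CPM in AhR-poor vehicle libraries (T100 to T103). After papain it measured 324, 390, 400 and 325 CPM on the I3C diet (T106, T113, T114 and T115) and 444, 393, 436 and 401 CPM on the AhR-poor diet (T104, T105, T107 and T112). The I3C groups did not overlap, whereas the AhR-poor papain libraries lay within the range of their vehicle libraries.

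The order of Socs3 means was I3C vehicle at 666 ± 192 CPM (SD, n = 4), AhR-poor vehicle at 525 ± 161, AhR-poor papain at 418 ± 25.1 and I3C papain at 360 ± 41.1, and the ranges of all neighbours overlapped. On the I3C diet the log2 fold change after papain was -0.89 (standard error 0.21, adjusted p = 0.00328), inside the fold limit. It was -1.03 without T109 and -0.69 without T108, and over the other settings its adjusted p was at most 0.0118. On the AhR-poor diet it was -0.33 (standard error 0.21, adjusted p = 0.252). Stat3 and Socs3 mRNA thus had differences of opposite sign after papain on the I3C diet.

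Counted together, papain on the AhR-poor diet raised 3 of the 10 genes (Osm, Osmr and Lif) and lowered 1 (Lifr). Of all 22155 genes tested, 6.04% were called higher and 2.42% lower in that comparison, 8.46% in all. With I3C, papain raised 2 (Osmr and Il6st) and lowered 1 (Lifr), beside 3.69% of all genes higher and 5.29% lower, 8.98% in all, and without T109 the number called was 5. Groups did not overlap for 7 of the 10 genes on either diet, against 33.0% and 33.4% of all genes. The median log2 fold change of the 10 was 0.90 on the AhR-poor and -0.28 on the I3C diet, where the medians over all genes were -0.00 and -0.04. A further 3 genes on each diet passed the adjusted p inside the fold limit, Il6ra, Il6st and Stat3 on the AhR-poor and Il6ra, Stat3 and Socs3 on the I3C diet.

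Between diets after vehicle, 0 of the 10 genes were called by edgeR or by DESeq2, 3 (Osm, Il6st and Stat3) had an unadjusted p below 0.05, and 1.59% of all genes were called. Groups did not overlap for 1 gene, Osm, against 8.12% of all genes, and the median log2 fold change was -0.12, with -0.01 over all genes. After papain the AhR-poor diet was higher for 3 genes (Osm, Il6 and Lif) and lower for 0, where 7.15% of all genes were called higher and 0.0993% lower, 7.24% in all, and the number was 1, Osm alone, without T105. Groups did not overlap for 5 genes, Osm, Il6, Lif, Il6st and Stat3, against 24.9% of all genes. This comparison shares its AhR-poor papain libraries with the papain response on the AhR-poor diet. The 10 genes had a median of 0.28 here, with 0.01 over all genes.

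The difference between the papain responses of the diets was tested as an interaction. None of the 10 genes was called by edgeR, 1 (Il6) was called by DESeq2, and 0.0181% of all genes were called by edgeR. The 3 ligands were those with an unadjusted p below 0.05. The interaction was 3.79 for Osm (standard error 1.41, adjusted p = 0.273), 2.47 for Il6 (standard error 0.57, adjusted p = 0.0819, and 4.66e-04 by DESeq2) and 1.33 for Lif (standard error 0.35, adjusted p = 0.109). For Osmr and Lifr it was -0.20 and 0.42 (adjusted p = 0.659 and 0.383), so that a different response of these receptors on the 2 diets was not shown.

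**Figure D5:**
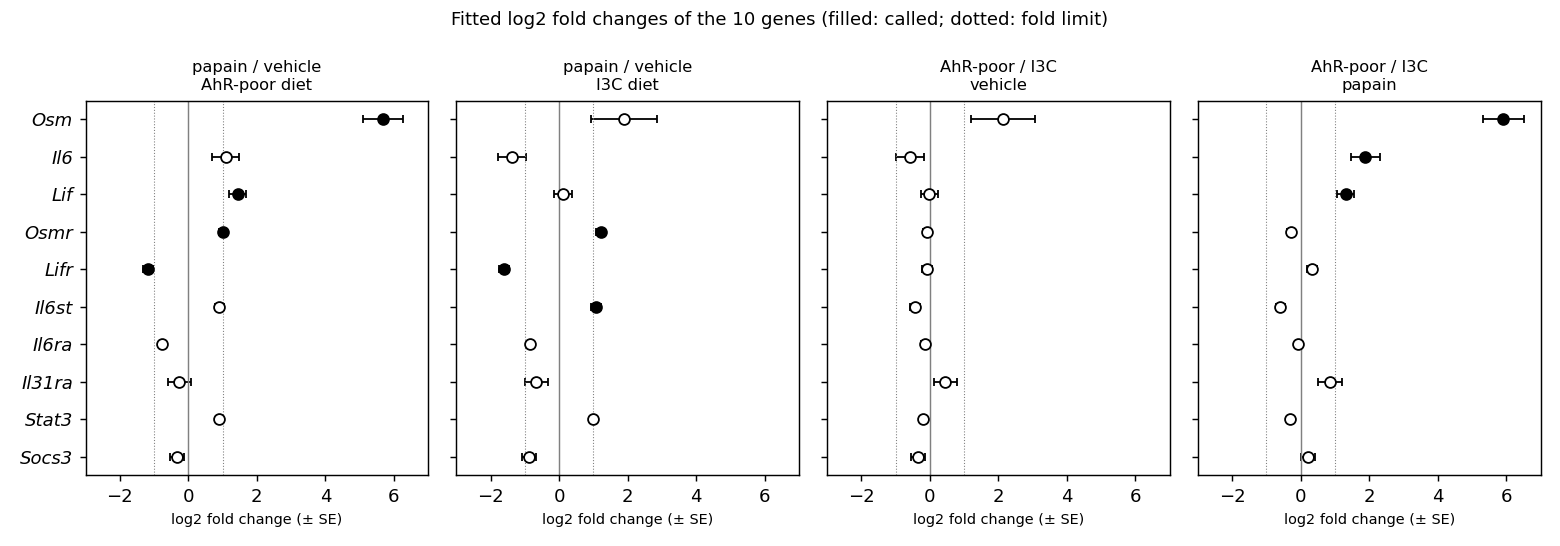
Fitted log2 fold changes with standard errors of the 10 genes in the papain comparisons on each diet and the diet comparisons at each treatment. Filled points are called and dotted lines mark the fold limit of 1. Osm lies at 5.68 and 5.92 where AhR-poor papain libraries are compared, and Osmr at 1.01 and 1.21 and Lifr at -1.18 and -1.60 in the papain comparisons.

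The rest of the pathway was read from 65 further genes, of which 63 were tested. Papain raised 19 and lowered 0 of them on the AhR-poor diet, and raised 15 and lowered 4 on the I3C diet, with medians of 0.29 and 0.21. Of all genes tested, papain raised 6.04% and lowered 2.42% on the AhR-poor diet, and raised 3.69% and lowered 5.29% on the I3C diet. Between diets 0 were called after vehicle by edgeR, where 13 had an unadjusted p below 0.05 and DESeq2 called 3, and 8 were higher after papain in AhR-poor mice, with medians of -0.02 and 0.09. Over all genes, 1.59% were called between diets after vehicle, and 7.15% were called higher on the AhR-poor diet after papain. The lists were chosen with earlier results of these data known, so their counts only describe them. Values given for the listed genes are log2 fold changes from the edgeR fit. Of the 9 other family ligands, 7 were tested and most were not called.

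Clcf1, which encodes a ligand of the CNTF receptor, rose after papain on both diets, by 1.27 (adjusted p = 0.00722) and 1.18 (adjusted p = 0.00991) on the log2 scale. The highest I3C papain library had 117.6 CPM of Clcf1, against a group median of 54.6 CPM. No fit without that library is given for this gene. Ebi3, a subunit of interleukin-27 and interleukin-35, rose on the AhR-poor diet (2.45, adjusted p = 1.68e-04) and was higher there than on the I3C diet after papain (3.27, adjusted p = 4.64e-05). The medians of the tested ligands were 0.47 on the AhR-poor and -0.74 on the I3C diet, the latter -0.25 when Il27, at the floor in both I3C groups, was left out.

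Of the 3 other receptor chains, Cntfr, the CNTF receptor, rose on both diets, from 2.19 ± 1.36 to 7.69 ± 2.66 CPM on the AhR-poor (log2 fold change 1.81, adjusted p = 0.00218) and from 0.939 ± 0.322 to 3.76 ± 0.922 CPM on the I3C diet (2.01, adjusted p = 0.00150; SD, n = 4). Among 11 kinases, STATs and adaptors, Jak3, a kinase of the common gamma chain receptors mostly found in leukocytes, rose on the AhR-poor diet (1.32, adjusted p = 6.21e-05). None of the 11 was called between diets by edgeR or DESeq2, and 0 had an unadjusted p below 0.05 by edgeR after vehicle and 5 after papain.

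Of the 9 other feedback inhibitors, 0 were called on the AhR-poor diet by edgeR or DESeq2, with 5 at an unadjusted p below 0.05 by edgeR, and Socs2 (-1.36, adjusted p = 6.38e-05) and Cish (-1.09, adjusted p = 3.83e-04), both known as STAT5 targets, fell on the I3C diet. After papain, Socs2 was higher with the AhR-poor diet than with I3C (1.07, adjusted p = 0.00170). Medians of this list were -0.15 and -0.27 after papain.

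Genes known as STAT3 targets moved in part, where papain raised 6.04% of all genes on the AhR-poor and 3.69% on the I3C diet. Of 18, papain raised 6 on the AhR-poor diet, led by Timp1, an inhibitor of matrix proteases (6.86, adjusted p = 6.10e-10), the acute phase gene Saa3 (4.84, adjusted p = 6.52e-06), Lrg1 (4.50, adjusted p = 8.38e-05) and Bcl3 (2.18, adjusted p = 9.75e-05), with a median of 0.39. With I3C, 6 rose, with Timp1 at 3.999 (adjusted p = 2.05e-06), Il4ra at 1.95 (adjusted p = 1.58e-06) and Bcl3 at 1.72 (adjusted p = 4.84e-04) and a median of -0.07. Saa3 was at least 4.02-fold higher there after papain, against the floor of 3 counts per library, and 1 gene, Myc, named after its value was seen, fell (-1.07, adjusted p = 1.70e-05). After papain Lrg1 (6.00), Timp1 (4.75) and Saa3 (3.83) were higher in AhR-poor mice, with adjusted p-values of 4.50e-05, 4.21e-08 and 5.93e-05, and Lrg1, with 44 of its 65 I3C papain counts in T106, stood at 7.12 without that library. These 3 are also expressed by leukocytes or fibroblasts, whose markers moved the same way, and their part was not tested.

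Of 10 keratinocyte genes that oncostatin M raises in culture, papain raised 8 on the AhR-poor diet and 6 on the I3C diet, with medians of 3.93 and 2.69, the latter 3.49 without Cxcl5 and Il20, whose levels allow no fold there. Of all genes, 6.04% and 3.69% were called higher in these comparisons. Krt16, a keratin of activated keratinocytes, rose by 3.98 (adjusted p = 4.25e-07) and 4.28 (adjusted p = 1.19e-07), and Krt6a by 3.91 (adjusted p = 6.90e-06) and 4.67 (adjusted p = 1.04e-06) on the AhR-poor and the I3C diet. The chemokine gene Cxcl5 was at least 259-fold higher after papain on the AhR-poor diet, against the floor. S100a9 (3.25, adjusted p = 5.27e-04), Cxcl1 (1.29, adjusted p = 6.30e-04) and Cxcl5 (adjusted p = 2.16e-07) were higher with the AhR-poor diet than with I3C after papain. The I3C papain libraries held 7 Cxcl5 counts, 6 of them in T106, and against the floor of the other 3 libraries Cxcl5 was at least 239-fold higher. S100a9 and S100a8, calprotectin genes of activated keratinocytes, rose by 6.74 and 6.20 on the AhR-poor and by 5.70 and 6.43 on the I3C diet (adjusted p of at most 5.24e-05), and both are abundant in neutrophils as well.

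The 5 differentiation genes that oncostatin M lowers in culture, Krt1, Krt10, Flg, Lor and Ivl, gave 0 calls in the 4 comparisons and the interaction by edgeR and by DESeq2. By edgeR, 3 had an unadjusted p below 0.05 for papain on the AhR-poor diet, 1 on the I3C diet, 1 between diets after vehicle, 2 after papain and 0 in the interaction. Krt10 measured 0.19 after vehicle and -0.21 after papain as a log2 difference between diets (adjusted p = 0.783 and 0.508), and Krt1 measured 0.01 and 0.21 for the papain responses (adjusted p = 0.991 and 0.354). The medians of the 5 were -0.59 and -0.89 after papain on the AhR-poor and the I3C diet, and 0.78 and 0.65 for the diet differences after vehicle and papain.

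The motif search was extended to the windows of all 9 genes that have one, 10 in number. Those of Osmr, Socs3 and Il31ra lie, like those of Lifr, inside the GENCODE spans of their genes. The bases before these GENCODE starts were not searched. The STAT motif, TTCNNNGAA, was present in the windows of Socs3 (at -154 to -146) and Il31ra (at -191 to -183), and in 7.02% of all windows. Neither the AhR motif TNGCGTG nor the CRE motif TGACGTCA was found in any of the 10, and 4.10% and 1.55% of all windows held them. No statement about binding of these factors follows from the letters.

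The genes most like a member over the 16 libraries were named by the root mean square difference of log2 CPM, each gene centred on its mean, among 12192 genes. For Osm, whose own spread about its mean was 2.74, they were the leukocyte receptor gene Cd300ld (0.5003), the chemokine gene Ccl4 (0.509) and Igsf6 (0.511). For Osmr, with a spread of 0.593, they were Gcnt2 (0.117), Bcar3 (0.123) and Capn2 (0.130). For Il6, with a spread of 0.832, the nearest, H2-Q4, Thbs1 and Ftl1, were at 0.396 to 0.420. For Socs3, with a spread of 0.422, they were the immediate early genes Junb (0.134), Ppp1r15a (0.163) and Jun (0.168). These values describe 16 libraries that share groups and depth.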

How the data were processed

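RNA was sequenced from footpad epidermal cells of 16 mice with a stranded mRNA kit. Per the methods and the submitters' notes, reads were checked with FastQC and aligned with STAR to mm10, and the authors deposited whole-number counts of reads per gene and library, without normalization. The counting tool, annotation and strand setting are not given in the sources used here. Diet and treatment were taken from the labels. Sequencing unit and cage were not terms, since the labels do not give them. Replicate codes differ between all groups.

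Of 50600 identifiers, 50376 were matched to symbols in GENCODE M21 for GRCm38 and 224 were not. That annotation gave positions and exonic lengths, and RefSeq for GRCm38.p6 gave the promoters. Genes whose counts summed to 10 or more were fitted with edgeR 4.0.16 (R 4.3.3, TMM factors, a mean for each of 4 groups, robust quasi-likelihood F test), with Benjamini-Hochberg adjustment over the 22155 genes tested. Calls needed a log2 fold change outside -1 to 1 and an adjusted p below 0.01. Standard errors were derived from the fold change and the F statistic. The Osmr to Lifr ratio, with 0.5 added to both counts, was compared by exact permutation tests (scipy 1.17.1). The fit was tested on simulated data. Replicates differed by more than counting noise, with a chi-square of 10.2 to 102 per degree of freedom.

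The 10 genes and the lists were chosen with earlier results of these data known. All 10 were named. Of the other lists, up to 4 called genes with the largest change, or up to 2 of the highest mean where none was called, were named per comparison, together with the 3 genes most like Osm, Osmr, Il6 and Socs3. Promoters were printed for the 3 genes with the largest called change that have one. The alternatives tried were DESeq2 1.42.0, scaling by RLE factors or by library size alone, 3 other filters (filterByExpr, 10 counts in every library, 1 count in any), a fit of the compared libraries alone, a threshold of 0.05, dropping the fold limit, other pseudocounts of 0 and 5 for the ratio, and leaving out each library. Explants and flow cytometry were not analysed here. Values of some single genes of the pathway lists are not reported here, although the counts and medians of the lists include them.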

Additional observations from a re-analysis of the deposited data

Results flagged for a closer look

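Over the 44 groups of 4 libraries examined (10 genes and the ratio of Osmr to Lifr in 4 groups), 2 held a library far from the other 3. Chance alone flags about 1 in 20 groups, here 2.2. In the I3C papain group, Osmr in T106 stood at 82.9 CPM, below the other 3, which lay between 101.98 and 106.2 CPM. In the AhR-poor vehicle group, Stat3 in T102 stood at 246.6 CPM, below the other 3, which lay between 289 and 296 CPM.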

How the results depend on the processing

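No paired analysis was possible because no replicate code occurs in more than one group. Of 50 fitted values (10 genes in 5 comparisons), 45 kept their sign and 41 kept their call in every other fit, and 36 also kept their call under the other thresholds. The number of genes called after papain on the AhR-poor diet went from 4 to 7 with no minimum fold change. On the I3C diet it went from 3 to 6 with no minimum fold change and to 5 with filterByExpr or DESeq2, and ranged from 2 to 5 without 1 library. Between diets after papain it ranged from 1 to 3 without 1 library, and for the interaction it went from 0 to 1 with DESeq2. The signs that turned belonged to values near 0. Without 1 library, Lif after papain on the I3C diet ranged from -0.0331 to 0.20, and after vehicle the diet difference ranged from -0.17 to 0.0714 for Osmr, -0.13 to 0.0646 for Lif, -0.19 to 0.0175 for Lifr and -0.0734 to 0.0543 for the ratio of Osmr to Lifr. Il6ra between diets after papain ranged from -0.13 to 0.0115. With library size only, Lif between diets after vehicle was 0.0276 and Il6ra after papain 0.0278, and this scaling moved the median of all genes after papain from 0.01 to 0.11. The causes were not tested. Over all genes, a minimum of 10 counts in every library lowered the number called from 1874 to 997 on the AhR-poor diet, from 352 to 58 between diets after vehicle and from 1605 to 561 after papain, and left out Osm. DESeq2 called 601 genes between diets after vehicle and 205 in the interaction, where edgeR called 4. Without 1 library these 2 edgeR counts ranged from 194 to 430 and from 2 to 95. Depth limits Osm on the I3C diet, where the 4 vehicle libraries held 10 counts and the 4 papain libraries 40, of which 27 were in T106.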
